A study of Mus musculus with 9 samples.

Results

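The 37 genes described here encode the transporters and enzymes that carry glucose to pyruvate and lactate, the kinases and subunits that set the entry of pyruvate into mitochondria, and 4 enzymes of the pentose phosphate pathway. They were chosen by symbol and not by a rule on their measured levels, but with earlier results of these data known. Among the 23360 genes listed, 37 of 37 symbols were found. All 37 passed the filter on low values, an FPKM (fragments per kilobase and per-million fragments) of at least 1 in at least 3 of the 9 libraries. The filter kept 14337 genes in all.

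RNA was measured in mouse tumours of SHH medulloblastoma, a cerebellar tumour with active Hedgehog signalling that grows from granule neuron progenitors, and in normal cerebellum. A1G tumours came from Math1-cre;A1G;Ptch1+/- mice of mixed strain, in which Cre recombinase is made under the Math1 (Atoh1) promoter of granule neuron progenitors. Ptch1 tumours came from Ptch1+/- mice of mixed strain, which have 1 disrupted copy of the Hedgehog receptor gene as the A1G animals do. Cerebellum came from wild type adult C57BL/6 mice, so strain, genotype and tissue cannot be told apart in any comparison with it. The sources used here do not give the age of the tumour animals. Each group had 3 libraries of ribosome-depleted total RNA sequenced on an Ion Proton. The labels number them as replicates without saying that they came from separate animals, so p-values measure only the spread between these libraries.

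Glycolysis splits glucose into pyruvate with a small yield of ATP, and lactate dehydrogenase then converts pyruvate to lactate when it is not sent to mitochondria. Many steps are run by several isozymes, encoded by separate genes with different tissue patterns. Proliferating granule neuron progenitors are known to use aerobic glycolysis, with hexokinase 2 as a Hedgehog-responsive isozyme, whereas the adult cerebellum holds mature neurons and glia with their own isozymes, such as aldolase C and neuron-specific enolase.

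The depth was 2350941 to 3049987 fragments assigned to genes in A1G tumours, 2699234 to 9290237 in Ptch1 tumours and 3304042 to 5300936 in cerebellum. Levels are given as CPM (fragments per-million, with library sizes scaled over all 9 libraries), and 3 fragments correspond to 0.336 to 1.23 CPM. A1G replicate 2 stood apart from the other tumours. Its 10 granule neuron progenitor markers summed to 3486 CPM, against 6521 to 9624 CPM in the other 5 tumours and 89.8 to 142 CPM in cerebellum. Cerebellum replicate 1 also stood apart, with choroid plexus markers at a sum of 2947 CPM, against 36.2 to 48.8 CPM in tumours and 151 and 204 CPM in the other cerebellum libraries. Mature granule neuron markers summed to 340.4 to 1185 CPM in tumours and 7387 to 9809 CPM in cerebellum, Purkinje cell markers to 244 to 879.6 CPM in tumours and 9714 to 12112 CPM in cerebellum, and oligodendrocyte markers to 74.4 to 442 CPM in tumours and 8040.2 to 8697 CPM in cerebellum, with the oligodendrocyte gene Opalin at 0 in every tumour. Astrocyte and Bergmann glia markers summed to 1139 to 2338 CPM in tumours and 4447 to 5344 CPM in cerebellum, endothelial markers to 62.7 to 178 CPM in tumours and 227 to 269 CPM in cerebellum, and microglia and macrophage markers to 215 to 511 CPM in tumours and 167 to 187 CPM in cerebellum. In these bulk samples fewer cells of a type and less RNA per cell cannot be told apart, and the part of these cell types in the differences below was not tested.

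Tumours were compared with cerebellum to see how the glycolytic genes differ between the tumour and the tissue it grows in. Most of those that changed were lower in tumours. Of the 37 genes, 18 fell (48.6%, where 21.5% of all tested genes fell) and 2 rose (5.41%, where 20.7% of all tested genes rose), by the quasi-likelihood test of edgeR at 0.05, with p adjusted by Benjamini-Hochberg across all tested genes. The genes that rose were Hk2 and Tkt. The other 17 did not pass. The median log2 fold change of the 37 genes was -0.80, against 0.01 over all tested genes. Levels of tumours and cerebellum did not overlap for 14 genes lower in tumours (19.7% of all tested genes) and 2 higher in tumours (18.5% of all tested genes). Summed over the 37 genes, the level was 2607 ± 294 CPM in the A1G tumours, 3195 ± 685 CPM in the Ptch1 tumours and 7931 ± 1315 CPM in cerebellum (SD, n = 3 each). A large share of the cerebellum's sum was Aldoc alone. Without it the sums were 2543 ± 292 CPM in the A1G tumours, 3159 ± 681 CPM in the Ptch1 tumours and 5432 ± 662 CPM in cerebellum. Without A1G replicate 2, 2 genes rose and 17 fell. Without cerebellum replicate 1, 1 rose and 14 fell.

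**Figure D1:**
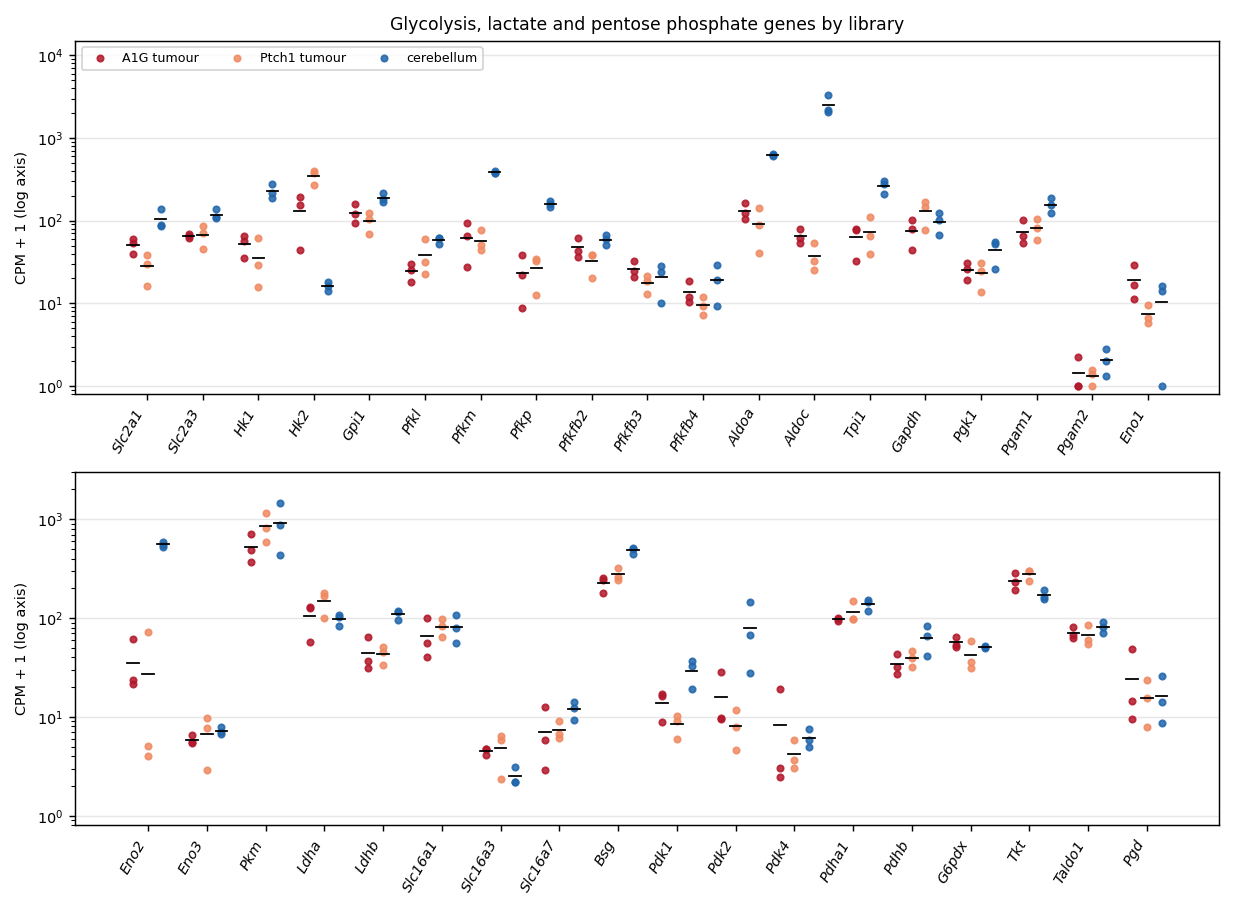
Levels of the 37 genes in every library, as CPM + 1 on a log axis, in the order A1G tumours, Ptch1 tumours and cerebellum, with a bar at the mean of each group (n = 3). Hk2 lies higher in every tumour than in cerebellum, while Hk1, Pfkm, Pfkp, Aldoa, Aldoc and Eno2 lie lower.

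Glucose enters cells through the transporters Slc2a1 (GLUT1, chr4:119108711-119137983), which also marks the brain endothelium, and Slc2a3 (GLUT3, chr6:122727809-122801640), the main neuronal transporter. Both genes fell. Slc2a1 had 58.6, 52.4 and 38.2 CPM in the A1G tumours, 15.3, 37.7 and 28.7 CPM in the Ptch1 tumours, and 88.0, 84.2 and 135 CPM in cerebellum. No tumour reached the lowest cerebellum library, and the log2 fold change was -1.47 (SE 0.29, edgeR adjusted p = 0.00135). Slc2a3 had 59.9 to 68.6 CPM in the A1G tumours, 44.5 to 84.7 CPM in the Ptch1 tumours and 107.8 to 136 CPM in cerebellum, without overlap, and a log2 fold change of -0.85 (SE 0.23, edgeR adjusted p = 0.0100). Without cerebellum replicate 2 its adjusted p was 0.0670.

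Hexokinases trap glucose in the cell by phosphorylating it, and here the isozymes moved in opposite directions. Hk2 (chr6:82725025-82774454, minus strand), the inducible isozyme of muscle, fat and many tumours, had 191, 43.7 and 153 CPM in the A1G tumours, 270.2, 399.9 and 378 CPM in the Ptch1 tumours, and 15.2, 13.1 and 17.0 CPM in cerebellum. Every tumour was above every cerebellum library, and the lowest tumour was A1G replicate 2. The log2 fold change was 3.81 (SE 0.45, edgeR adjusted p = 3.53e-05), and it was 3.61 to 4.02 when any library was left out in turn. Hk1 (chr10:62268855-62379908, minus strand), the constitutive brain isozyme, had 34.3, 63.9 and 55.1 CPM in the A1G tumours, 28.4, 14.9 and 60.2 CPM in the Ptch1 tumours, and 189, 213 and 279 CPM in cerebellum. It fell by 2.45 on the log2 scale (SE 0.35, edgeR adjusted p = 1.59e-04), without overlap between the groups.

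In each library the share of Hk2 in the summed FPKM of the pair shows which isozyme leads in RNA, since FPKM is per length. Hk2 made up 80.6%, 33.7% and 67.5% of the pair in A1G tumours, 87.6%, 95.2% and 82.4% in Ptch1 tumours, and 5.65%, 4.38% and 4.33% in cerebellum. Hk2 thus led in 5 of 6 tumours, Hk1 in A1G replicate 2 and in all 3 cerebellum libraries. The log2 ratio of Hk2 to Hk1 fragments was 6.23 higher in tumours (p = 0.0119 by an exact two-sided permutation test, which can go no lower with 6 and 3 libraries; 0.0327 adjusted over the 11 isozyme pairs compared). Leaving out cerebellum replicate 1, 2 or 3 gave 6.36, 6.17 or 6.15 with adjusted p of 0.0655, 0.0982 or 0.0786.

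The promoters of this pair are shown because their levels moved apart. RefSeq on GRCm38.p6 holds promoters of 300 bases around the start for 34 of the 37 genes, 51 in all, with no entry for Bsg, Slc16a7 and Slc2a3. They were searched on both strands for ACGTG and GCGTG, the cores of hypoxia response elements, and for CACGTG, the E-box that Myc proteins bind, which contains ACGTG on each strand. Capitals mark the matches, including CACGT and CACGC, which are the same cores on the other strand. The Hk2 promoter (chr6:82774405-82774704, minus strand) holds 2 matches of ACGTG. Of the 2 promoters listed for Hk1, the downstream start (chr10:62340372-62340671, minus strand) holds 2 matches of ACGTG and 3 of GCGTG, with 2 matches of GCGTG sharing letters, and the other promoter holds none.
Hk2: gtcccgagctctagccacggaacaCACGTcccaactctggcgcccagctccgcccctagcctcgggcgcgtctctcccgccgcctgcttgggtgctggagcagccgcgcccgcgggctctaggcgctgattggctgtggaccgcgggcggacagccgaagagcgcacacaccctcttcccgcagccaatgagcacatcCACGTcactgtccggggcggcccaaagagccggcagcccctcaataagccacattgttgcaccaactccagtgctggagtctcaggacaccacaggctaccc
Hk1: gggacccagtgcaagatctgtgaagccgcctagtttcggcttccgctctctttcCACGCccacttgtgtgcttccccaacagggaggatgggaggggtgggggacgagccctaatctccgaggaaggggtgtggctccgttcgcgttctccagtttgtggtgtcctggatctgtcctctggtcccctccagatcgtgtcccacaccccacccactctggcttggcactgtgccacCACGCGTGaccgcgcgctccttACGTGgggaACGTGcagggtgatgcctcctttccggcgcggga

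Over the 51 promoters, 22 held ACGTG (43.1%, against 19.6% of all 32851 promoters in the table), 30 held GCGTG (58.8%, against 32.4%) and 6 held CACGTG (11.8%, against 7.15%). The promoters of the 37 genes were also richer in G and C, with a median of 60.7% against 52.7% over all promoters, and several are alternative starts of 1 gene that overlap. The matches are a description of the sequence and were not tested for use.

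Downstream of hexokinase, Gpi1, which turns glucose-6-phosphate into fructose-6-phosphate, had 91.7 to 158 CPM in the A1G tumours, 67.8 to 124 CPM in the Ptch1 tumours and 167 to 215 CPM in cerebellum. It fell by 0.78 on the log2 scale (SE 0.25, edgeR adjusted p = 0.0233). Its adjusted p was 0.0501 without A1G replicate 3, 0.0519 without Ptch1 replicate 1, 0.0907 without cerebellum replicate 1 and 0.0533 without cerebellum replicate 3.

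All 3 phosphofructokinase genes, which encode the subunits of the enzyme at the committed step, fell. Pfkm (muscle type) had 26.2, 91.4 and 63.7 CPM in the A1G tumours, 49.7, 43.1 and 76.2 CPM in the Ptch1 tumours, and 381, 400.1 and 377 CPM in cerebellum, a wide gap between the groups. Its log2 fold change was -2.73 (SE 0.32, edgeR adjusted p = 3.16e-05). Pfkp (platelet type) had 21.0, 7.86 and 37.6 CPM in the A1G tumours, 31.7, 11.7 and 33.7 CPM in the Ptch1 tumours, and 159, 171 and 147 CPM in cerebellum, with a log2 fold change of -2.75 (SE 0.40, edgeR adjusted p = 1.68e-04). The fragments of Pfkp were not whole numbers in any of the 9 libraries, nor were those of Pdha1. Those of Pfkfb2 were not whole in 8 of the 9. Pfkl (liver type) changed least, by -0.97 (SE 0.31, edgeR adjusted p = 0.0242), and its groups overlapped, since Ptch1 replicate 3 had 59.8 CPM and cerebellum 50.8 to 61.5 CPM. The adjusted p of Pfkl was 0.0511 without A1G replicate 3, 0.0710 without cerebellum replicate 1, 0.05003 without cerebellum replicate 2 and 0.0739 without cerebellum replicate 3. Pfkl made up 16.4% to 45.9% of the FPKM of Pfkl and Pfkm in A1G tumours, 24.8% to 37.2% in Ptch1 tumours and 8.81% to 11.03% in cerebellum, without overlap, but the ratio missed the threshold (log2 difference 1.79, exact permutation p = 0.0238, adjusted p = 0.0524).

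The Pfkfb genes encode bifunctional enzymes that make or break down fructose-2,6-bisphosphate, the activator of phosphofructokinase. None of the 3 passed in tumours against cerebellum. Pfkfb3, whose product strongly favours synthesis, averaged 20.7 ± 6.43 CPM in tumours (SD, n = 6) and 19.7 ± 9.29 CPM in cerebellum (SD, n = 3), with a log2 fold change of 0.05 (SE 0.36). The fold change was -0.61 for Pfkfb2 (SE 0.28, edgeR adjusted p = 0.0972) and -0.80 for Pfkfb4 (SE 0.41, edgeR adjusted p = 0.135). Pfkfb2 passed under limma (adjusted p = 0.0274), and Pfkfb4 without cerebellum replicate 3 (adjusted p = 0.0379).

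Aldolases cleave the 6-carbon sugar into triose phosphates, and both isozymes fell, Aldoc by more. Aldoc (chr11:78322968-78327781) encodes aldolase C, known in the cerebellum as zebrin II of Purkinje cells and also made by astrocytes and Bergmann glia. It had 60.5, 52.4 and 78.5 CPM in the A1G tumours, 24.5, 52.2 and 31.8 CPM in the Ptch1 tumours, and 3274, 2188 and 2034 CPM in cerebellum. Per length it was the most abundant of the 37 genes in each cerebellum library, at 1322 to 2128 FPKM, and its log2 fold change of -5.70 (SE 0.30, edgeR adjusted p = 1.50e-07) was the largest of the 37. Aldoa (chr7:126800790-126809108), the widespread isozyme, had 160, 102 and 123 CPM in the A1G tumours, 39.8, 87.6 and 141 CPM in the Ptch1 tumours, and 641, 617 and 605 CPM in cerebellum, with a log2 fold change of -2.54 (SE 0.31, edgeR adjusted p = 4.68e-05). Aldoa made up 64.1% to 75.2% of the FPKM of the pair in A1G tumours, 65.0% to 83.5% in Ptch1 tumours and 18.3% to 25.4% in cerebellum. The log2 ratio of Aldoa to Aldoc was 3.08 higher in tumours (exact permutation p = 0.0119, adjusted p = 0.0327). Of the RNA of this pair, Aldoa was the larger part in every tumour and Aldoc in every cerebellum library.

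Tpi1, which interconverts the triose phosphates, had 31.3 to 77.8 CPM in the A1G tumours, 38.7 to 110.0 CPM in the Ptch1 tumours and 212 to 298 CPM in cerebellum. It fell by 1.99 on the log2 scale (SE 0.34, edgeR adjusted p = 4.90e-04).

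Of the 8 genes of the lower steps from glyceraldehyde phosphate to pyruvate, 3 fell and 5 did not pass. Gapdh, which makes NADH at this stage, had 99.9, 42.7 and 79.0 CPM in the A1G tumours, 76.0, 165 and 144 CPM in the Ptch1 tumours, and 102, 121 and 65.5 CPM in cerebellum, and the groups overlapped throughout (log2 fold change 0.02, SE 0.33, edgeR adjusted p = 0.974). Of the 50-base windows of the Gapdh transcript, 82.5% also occur in transcripts of other genes, as listed in GENCODE M21. Its fragments were nevertheless whole numbers in all 9 libraries, and how the authors counted reads from such windows is not given. Such sharing of windows was over 10% for 12 of the 37 genes and 0 for 17, the latter including Hk1, Hk2, Aldoc, Slc2a1 and Tkt. The 17 also include Pfkp, whose fragments were not whole in any library, and those of Hk1 were not whole in 2. Shared windows therefore did not always match the rows with fractions. Besides those given with their genes, the 12 include Pkm (34.4%), Pdhb (30.3%), Pfkfb2 (25.1%), Gpi1 (19.3%), Aldoa (13.5%) and Taldo1 (10.9%). Pkm, which encodes pyruvate kinase, had 710.3, 368 and 491 CPM in the A1G tumours, 586, 806 and 1164 CPM in the Ptch1 tumours, and 1462, 878 and 434 CPM in cerebellum. Per length it was the most abundant of the 37 genes in every tumour, at 169 to 523 FPKM, and it did not pass (log2 fold change -0.47, SE 0.36, edgeR adjusted p = 0.319). Its M1 and M2 splice forms share a gene row and were not separated here.

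Pgk1, the first ATP-making step, had 18.1 to 29.9 CPM in the A1G tumours, 12.8 to 29.5 CPM in the Ptch1 tumours and 25.2 to 54.7 CPM in cerebellum, with overlap. It fell by 0.90 on the log2 scale (SE 0.33, edgeR adjusted p = 0.0458), but this missed the threshold under limma (adjusted p = 0.0699) and when some libraries were left out. Its adjusted p was 0.0544 and 0.0877 without the A1G library 2 or 3, 0.0846 and 0.0614 without the Ptch1 library 1 or 3, and 0.149 and 0.201 without the cerebellum library 1 or 2. Windows shared with other genes made up 68.0% for Pgk1 and 41.5% for Pgam1. Pgam1, the phosphoglycerate mutase of brain, fell by 1.01 on the log2 scale (SE 0.27, edgeR adjusted p = 0.00888), with 53.0 to 101 CPM in the A1G tumours, 56.6 to 103 CPM in the Ptch1 tumours and 122 to 186 CPM in cerebellum. Its muscle counterpart Pgam2 was near the detection limit, with 0 to 5 fragments per tumour library and 1 to 7 per cerebellum library.

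Enolases act before pyruvate kinase, and the neuronal isozyme was far lower in tumours. Eno2 (chr6:124760053-124769673, minus strand), neuron-specific enolase, had 22.5, 20.3 and 60.5 CPM in the A1G tumours, 4.12, 3.03 and 71.3 CPM in the Ptch1 tumours, and 550.2, 528 and 590.0 CPM in cerebellum. Ptch1 replicate 3 was far above the other Ptch1 tumours. The log2 fold change was -4.25 (SE 0.75, edgeR adjusted p = 6.34e-04) and -5.66 without that library. The 10 mature granule neuron markers were also highest among Ptch1 tumours in that library, at a sum of 1185 CPM, against 657 and 340.4 CPM in the other Ptch1 tumours. In A1G replicates 1, 2 and 3 these markers summed to 486, 1046 and 1154 CPM, while Eno2 was lowest in A1G replicate 2. The part of mature granule neurons in the Eno2 values was not tested. The muscle isozyme Eno3 had 1.92 to 8.70 CPM in tumours and 5.78 to 6.99 CPM in cerebellum and did not pass (edgeR adjusted p = 0.742).

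The row for Eno1, the widespread enolase, could not be read alone. It listed 27.7, 15.8 and 10.4 CPM in the A1G tumours, 8.67, 5.67 and 4.85 CPM in the Ptch1 tumours, and 13.2, 15.3 and 0 CPM in cerebellum, and its fragments were not whole numbers in 8 of 9 libraries. The listed gene Gm5506, named Eno1b in RefSeq, shares 72.2% of the 50-base windows of Eno1 together with other copies, and the fragments of Eno1 and Gm5506 added up to a whole number in all 9 libraries, to within 0.005. Eno1 held 2.75% to 21.0% of that sum in tumours and 0% to 10.9% in cerebellum. The sum was 132, 89.7 and 107 CPM in the A1G tumours, 99.2, 206 and 112 CPM in the Ptch1 tumours, and 144, 140 and 171 CPM in cerebellum, so the groups overlapped (difference of mean log2 CPM -0.34, exact permutation p = 0.226). With Eno1 alone the log2 ratio to Eno2 was 6.92 higher in tumours (exact permutation p = 0.0119, adjusted p = 0.0327). Its size rested on cerebellum replicate 3, the library with no Eno1 fragments: the difference was 4.49 without that library (adjusted p = 0.0786), against 8.07 and 8.20 without cerebellum replicate 1 or 2 (adjusted p = 0.0655 and 0.0982). With the sum, a choice made after seeing the data, it was 4.67 higher without overlap and missed the threshold (exact permutation p = 0.0238, adjusted p = 0.0524).

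**Figure D2:**
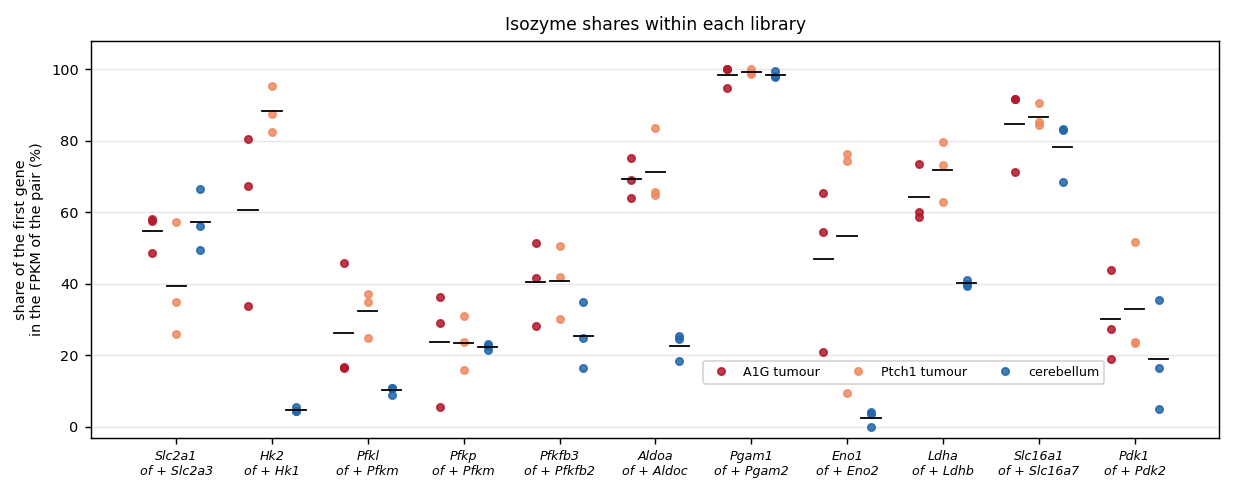
Share of the first gene in the summed FPKM of each of 11 isozyme pairs, in percent, per library, in the order A1G tumours, Ptch1 tumours and cerebellum, with a bar at the mean of each group (n = 3). The shares of Hk2, Pfkl, Aldoa, Eno1 and Ldha lie higher in every tumour than in cerebellum, where the Eno1 row holds only part of the reads it shares with Gm5506.

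Lactate dehydrogenase converts pyruvate to lactate, and its subunits differ in preference: Ldha favours lactate formation and Ldhb its use. Ldhb (chr6:142490249-142507957, minus strand) had 35.4, 63.0 and 30.4 CPM in the A1G tumours, 44.6, 50.2 and 32.2 CPM in the Ptch1 tumours, and 115, 116 and 93.6 CPM in cerebellum. It fell by 1.34 on the log2 scale (SE 0.26, edgeR adjusted p = 0.00128), without overlap. Ldha (chr7:46841475-46855627) had 129, 126 and 56.8 CPM in the A1G tumours, 99.6, 179.9 and 164 CPM in the Ptch1 tumours, and 105, 102 and 81.5 CPM in cerebellum. Its groups overlapped and it did not pass (log2 fold change 0.37, SE 0.30, edgeR adjusted p = 0.345). Ldha made up 73.6%, 60.2% and 58.8% of the FPKM of the pair in A1G tumours, 63.0%, 73.2% and 79.6% in Ptch1 tumours, and 41.2%, 40.1% and 39.4% in cerebellum. It led in every tumour and Ldhb in every cerebellum library, with a log2 ratio 1.69 higher in tumours (exact permutation p = 0.0119, adjusted p = 0.0327). Shared windows made up 16.6% for Ldha and 27.0% for Ldhb.

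The promoters of this pair differ in motif content. The Ldha promoter (chr7:46845554-46845853, plus strand) holds 2 matches of CACGTG, each of which counts as ACGTG on both strands, 5 matches of ACGTG in all and 2 of GCGTG. The second promoter listed for Ldha holds 2 of GCGTG. The Ldhb promoter (chr6:142507908-142508207, minus strand) holds 1 match of GCGTG and none of ACGTG or CACGTG. Capitals mark the matches as above.
Ldha: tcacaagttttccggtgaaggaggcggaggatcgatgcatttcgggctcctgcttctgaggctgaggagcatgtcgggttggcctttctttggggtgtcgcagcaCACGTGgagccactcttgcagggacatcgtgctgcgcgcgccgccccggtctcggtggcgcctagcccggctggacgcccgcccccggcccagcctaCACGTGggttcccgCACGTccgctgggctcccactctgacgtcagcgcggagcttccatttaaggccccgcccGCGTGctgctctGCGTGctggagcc
Ldhb: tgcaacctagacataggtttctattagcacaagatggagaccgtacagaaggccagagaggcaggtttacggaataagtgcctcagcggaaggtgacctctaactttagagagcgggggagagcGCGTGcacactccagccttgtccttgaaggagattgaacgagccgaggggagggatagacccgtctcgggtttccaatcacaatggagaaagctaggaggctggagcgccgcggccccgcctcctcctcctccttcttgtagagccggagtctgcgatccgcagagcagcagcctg

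Monocarboxylate transporters move lactate and pyruvate across the membrane with basigin (Bsg) as the partner that brings them to the surface. Bsg had 176 to 253 CPM in the A1G tumours, 244 to 321 CPM in the Ptch1 tumours and 448 to 513 CPM in cerebellum, and fell by 0.97 on the log2 scale (SE 0.21, edgeR adjusted p = 0.00248). None of the 3 transporters passed. Slc16a1 (MCT1) averaged 72.5 ± 24.3 CPM in tumours (SD, n = 6) and 79.3 ± 25.7 CPM in cerebellum (SD, n = 3). Slc16a3 (MCT4), known for lactate export, had 3.69, 3.12 and 3.70 CPM in the A1G tumours, 1.37, 4.83 and 5.36 CPM in the Ptch1 tumours, and 2.10, 1.22 and 1.20 CPM in cerebellum, with a log2 fold change of 1.27 (SE 0.61, edgeR adjusted p = 0.114) and overlap through Ptch1 replicate 1. Slc16a7 (MCT2), the neuronal transporter, had a log2 fold change of -0.84 (SE 0.49, edgeR adjusted p = 0.186), and passed without A1G replicate 3 (adjusted p = 0.0393).

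Pyruvate enters the citric acid cycle through pyruvate dehydrogenase, which its kinases switch off. Of these 5 genes, 3 fell and none rose. Pdk1 had 15.9, 15.3 and 7.81 CPM in the A1G tumours, 5.04, 9.21 and 8.05 CPM in the Ptch1 tumours, and 35.5, 31.6 and 17.97 CPM in cerebellum, without overlap (log2 fold change -1.52, SE 0.35, edgeR adjusted p = 0.00373). Pdk2 had 8.48, 27.1 and 8.64 CPM in the A1G tumours, 6.87, 3.595 and 10.7 CPM in the Ptch1 tumours, and 27.0, 66.6 and 143 CPM in cerebellum. A1G replicate 2 just reached the lowest cerebellum library. Its log2 fold change was -2.98 (SE 0.51, edgeR adjusted p = 5.53e-04), and -2.19 without cerebellum replicate 3, its highest library. Pdk4, the kinase induced by fasting, did not pass, and A1G replicate 2 had 18.1 CPM where the other tumours had 1.47 to 4.83 CPM and cerebellum 3.99 to 6.57 CPM. The log2 fold change of Pdk4 was -0.06 with that library and -1.09 without it. The catalytic subunit genes were Pdha1, which did not pass (log2 fold change -0.40, SE 0.22, edgeR adjusted p = 0.160), and Pdhb, which fell by 0.80 on the log2 scale (SE 0.27, edgeR adjusted p = 0.0324). The adjusted p of Pdhb was 0.0558 without the A1G library 1, 0.0584 and 0.0614 without the Ptch1 library 1 or 3, and 0.185 and 0.0957 without the cerebellum library 1 or 2.

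The pentose phosphate pathway branches off after hexokinase and yields NADPH and ribose for nucleotides. Of its 4 genes 1 rose and none fell. Tkt (chr14:30548359-30574720), the transketolase of the non-oxidative branch, had 192, 230.2 and 287 CPM in the A1G tumours, 300.4, 237 and 301 CPM in the Ptch1 tumours, and 189.6, 154 and 164 CPM in cerebellum. Every tumour was above cerebellum, A1G replicate 1 only just (log2 fold change 0.60, SE 0.22, edgeR adjusted p = 0.0427). The call held in 5 of 15 alternatives. Its adjusted p was 0.0893 without A1G replicate 3, 0.0856 without Ptch1 replicate 1, 0.0698 without Ptch1 replicate 3, 0.0569, 0.164 and 0.0921 without cerebellum replicate 1, 2 and 3 in turn, and 0.0555 with median-of-ratios scaling. G6pdx, the entry enzyme of the oxidative branch, averaged 48.3 ± 13.0 CPM in tumours (SD, n = 6) and 50.4 ± 1.08 CPM in cerebellum (SD, n = 3). The log2 fold change was -0.08 for G6pdx (SE 0.25), 0.28 for Pgd, the next oxidative enzyme (SE 0.56), and -0.23 for Taldo1, the transaldolase (SE 0.23), and none of these passed.

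**Figure D3:**
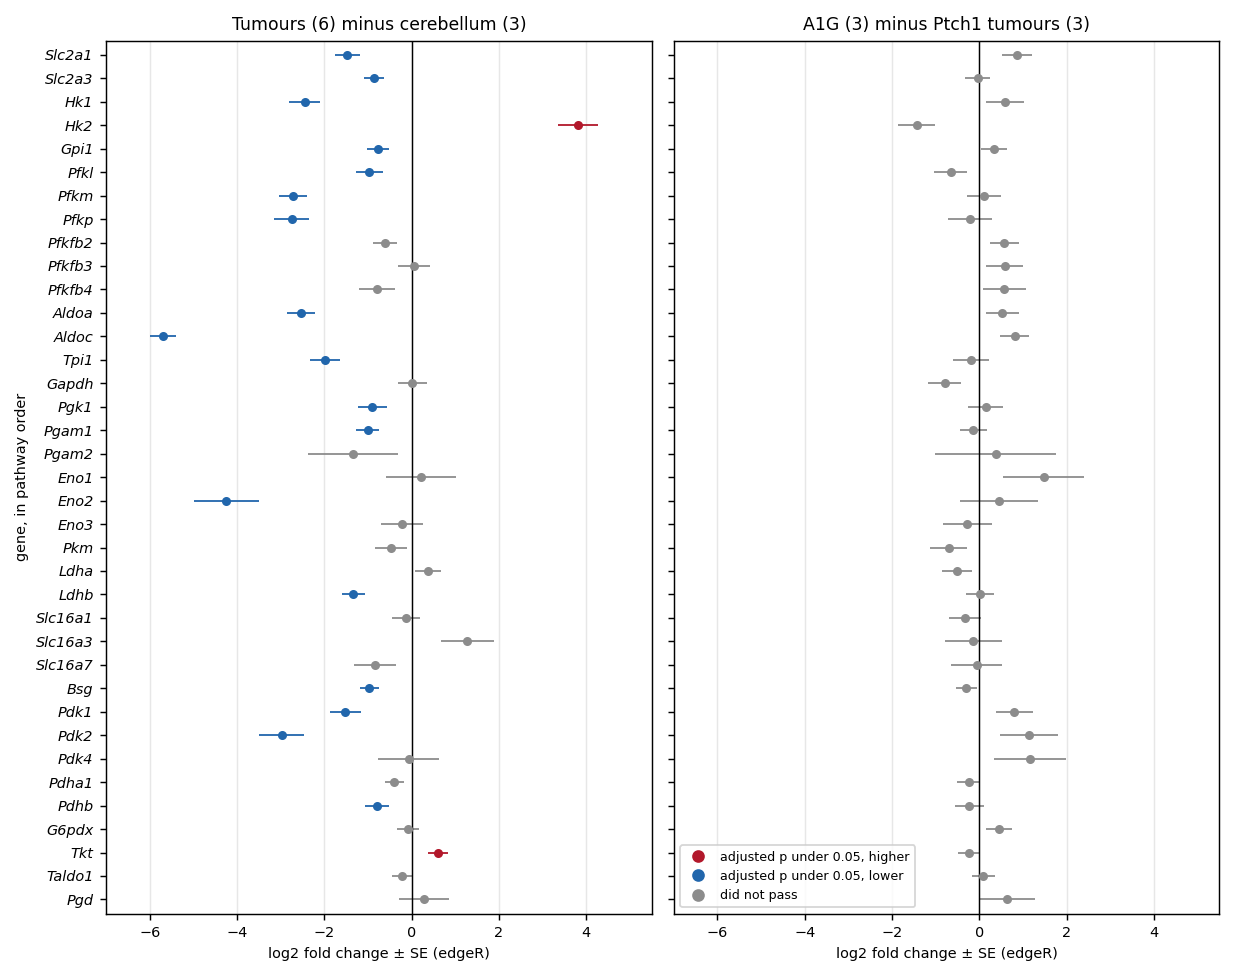
Log2 fold changes of the 37 genes with their standard errors, in pathway order, for tumours minus cerebellum at left and A1G minus Ptch1 tumours at right, with colour for edgeR's adjusted p under 0.05. At left 2 genes rose and 18 fell, with Hk2 at 3.81 and Aldoc at -5.70, and at right none passed.

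Each kind of tumour was also set against the same 3 cerebellum libraries, which both comparisons therefore share. In A1G tumours 1 gene rose (Hk2, where 16.3% of all tested genes rose) and 14 fell (16.1% of all tested genes fell), with a median log2 fold change of -0.83. In Ptch1 tumours 2 genes rose (Hk2 and Tkt, where 20.2% of all tested genes rose) and 16 fell (19.7% of all tested genes fell), with a median of -0.82. Pgk1 and Pdhb, called with both kinds together, passed in neither kind alone. Their edgeR adjusted p was 0.135 and 0.05001 in A1G tumours, and 0.0695 and 0.110 in Ptch1 tumours. Pfkfb2, not called with both kinds together, fell in Ptch1 tumours (edgeR adjusted p = 0.0467), a call that held in 9 of 16 alternatives. Hk2 was higher by 3.09 on the log2 scale in A1G tumours (SE 0.46, edgeR adjusted p = 3.58e-04) and by 4.53 in Ptch1 tumours (SE 0.49, edgeR adjusted p = 2.44e-05). Aldoc had log2 fold changes of -5.29 in A1G tumours (SE 0.40) and -6.10 in Ptch1 tumours (SE 0.41).

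A1G tumours were compared with Ptch1 tumours to see how tumours with both Math1-cre and A1G differ from those with neither. The Cre and A1G differ together between these groups and both are of mixed strain, so their parts cannot be told apart. None of the 37 genes passed (of all tested genes 0.0139% were higher and 0.0% lower in A1G tumours). By edgeR 3 genes had an unadjusted p under 0.05, where 10.6% of all tested genes did. DESeq2 and limma also called 0 of the 37. Of all 14337 tested genes, DESeq2 called only 107 higher and 56 lower in A1G tumours, and limma called 0. The median log2 fold change was 0.09, against 0.02 over all tested genes. These 3 genes were Hk2, Slc2a1 and Aldoc, named after their values were seen. Each A1G library had less Hk2 than any Ptch1 library, as listed above, with means of 129 ± 76.5 CPM in the A1G tumours and 349 ± 69.4 CPM in the Ptch1 tumours (SD, n = 3 each). The log2 fold change of Hk2 was -1.43 (SE 0.43, edgeR adjusted p = 0.299), and the exact permutation p was 0.1, which is as low as 3 and 3 libraries can give. It was -1.02 without A1G replicate 2 and -1.83 without A1G replicate 1.

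Each A1G library had more Slc2a1 and more Aldoc than any Ptch1 library. Slc2a1 averaged 49.8 ± 10.4 CPM in the A1G tumours and 27.3 ± 11.3 CPM in the Ptch1 tumours (log2 fold change 0.86, SE 0.35, edgeR adjusted p = 0.416). Aldoc averaged 63.8 ± 13.4 CPM in the A1G tumours and 36.2 ± 14.4 CPM in the Ptch1 tumours (log2 fold change 0.81, SE 0.34, edgeR adjusted p = 0.430). Groups without overlap were found for 3 of the 37 genes higher in A1G tumours (6.7% of all tested genes) and 1 lower (8.84% of all tested genes). The third of the higher genes was Eno1, whose sum with Gm5506 overlapped between the tumour kinds. Purkinje cell markers summed to 449 to 879.6 CPM in the A1G tumours and 244 to 355 CPM in the Ptch1 tumours. These do not overlap either. Astrocyte and Bergmann glia markers did overlap, with sums of 1214 to 2271 CPM in the A1G tumours and 1139 to 2338 CPM in the Ptch1 tumours. In A1G tumours Aldoc and the Purkinje sum were both highest in replicate 3. In Ptch1 tumours Aldoc was highest in replicate 2, which had the lowest Purkinje sum and the highest astrocyte sum. The part of these cell types in the Aldoc values was not tested. Of the 11 isozyme pairs only Hk2 with Hk1 did not overlap between the tumour kinds, with a log2 ratio lower by 2.41 in A1G tumours (exact permutation p = 0.1, adjusted p = 1). Any pair without overlap has this exact permutation p of 0.1 with 3 and 3 libraries.

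A list of 51 other genes of sugar, lactate and pyruvate metabolism gave the surroundings of these steps. Of 36 that passed the filter, 7 rose (19.4%, near the 20.7% of all tested genes) and 11 fell (30.6%, against 21.5% of all tested genes) in tumours against cerebellum, with a median log2 fold change of -0.44, and none passed between A1G and Ptch1 tumours, where 2 had an unadjusted p under 0.05 by edgeR. Among those that rose was Prps2. It encodes a phosphoribosyl pyrophosphate synthetase, an early step of nucleotide synthesis, and averaged 28.0 ± 4.69 CPM in tumours (SD, n = 6) and 10.2 ± 4.30 CPM in cerebellum (SD, n = 3; log2 fold change 1.45, SE 0.33, edgeR adjusted p = 0.00369). Rpia, the ribose phosphate isomerase, rose by 1.32 (SE 0.40, edgeR adjusted p = 0.0176), although its groups overlapped. The others of the 6 largest rises were the transporters Slc2a4 (1.80, with overlap, since Ptch1 replicate 3 had 4.98 CPM and the highest cerebellum library 5.39 CPM) and Slc16a4 (1.21), the ADP-dependent glucokinase Adpgk (1.17) and the phosphoglucomutase Pgm1 (1.15).

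The largest fall was that of Pygm. It encodes the muscle glycogen phosphorylase and averaged 5.82 ± 2.73 CPM in tumours (SD, n = 6) and 85.6 ± 9.24 CPM in cerebellum (SD, n = 3), a log2 fold change of -3.89 (SE 0.37, edgeR adjusted p = 6.70e-06). The brain form Pygb fell by 1.77 on the log2 scale (SE 0.23, edgeR adjusted p = 7.64e-05). Mpc2, a subunit of the mitochondrial pyruvate carrier, averaged 7.76 ± 1.41 CPM in tumours (SD, n = 6) and 30.1 ± 2.35 CPM in cerebellum (SD, n = 3; log2 fold change -1.95, SE 0.28, edgeR adjusted p = 1.69e-04). The others of the 6 largest falls were the transporter Slc2a6 (-2.53), the D-lactate dehydrogenase Ldhd (-2.42) and Slc2a13 (-1.54), a transporter of myo-inositol.

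Among 14 transcription factors and signalling genes known to regulate glycolysis, 12 passed the filter. Of these 2 rose (16.7%, not above the 20.7% of all tested genes) and none fell (21.5% of all tested genes). Mycn, a Hedgehog target and amplifier of growth metabolism, averaged 461 ± 69.2 CPM in tumours (SD, n = 6) and 8.64 ± 1.52 CPM in cerebellum (SD, n = 3; log2 fold change 5.72, SE 0.30, edgeR adjusted p = 1.50e-07). Myc averaged 33.8 ± 20.7 CPM in tumours and 2.56 ± 1.15 CPM in cerebellum (log2 fold change 3.68, SE 0.63, edgeR adjusted p = 5.22e-04). Hif1a, the hypoxia-inducible factor, did not pass (log2 fold change -0.42, SE 0.21, edgeR adjusted p = 0.132).

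**Figure D4:**
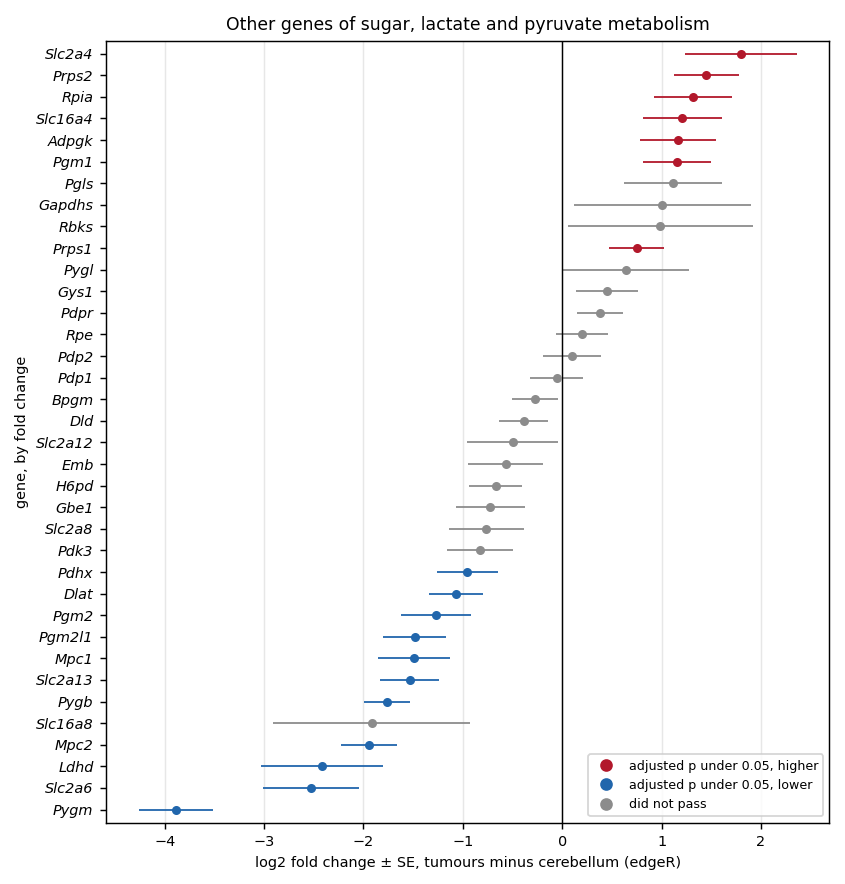
Log2 fold changes of the 36 other metabolic genes that passed the filter, tumours minus cerebellum, with standard errors, ordered by value, with colour for edgeR's adjusted p under 0.05. The 7 genes that rose include Prps2 and Rpia, and the 11 that fell include Pygm, Pygb and Mpc2.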

How the data were processed

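Per the labels' protocols, libraries of ribosome-depleted total RNA (Ion Total RNA-Seq Kit V2) were run on an Ion Proton, 3 to a chip. Which libraries shared a chip, the annotation and the counting tool are not given in the sources used here. The genome build was mm10 and Bowtie 0.12.2 was used, per the submitters' processing notes, which name no step for it. The authors assigned raw fragments to genes, per the file headers, and they are called expected counts, since 1147 to 1440 genes in each library had fractional fragments (tolerance 1e-06). The deposited signal columns are those fragments times 1 factor per library. The deposited FPKM values were computed by the authors from the scaled fragments, with tumours and cerebellum scaled apart (cerebellum FPKM for 1 scaled fragment was 0.808 times the tumour value). FPKM was therefore used only for shares and ranks of genes within a library, the filter on low values, and alternatives (limma, and isozyme ratios of FPKM + 0.1).

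Fragments were rounded and tested with edgeR 4.0.16 (quasi-likelihood, TMM scaling, 1 mean per group over all 9 libraries, filter on FPKM of 1 or more in 3 or more libraries) under R 4.3.3. Isozyme ratios used log2 of fragments plus 0.5 and an exact two-sided permutation test, adjusted over 11 pairs. Alternatives were median-of-ratios scaling, no filter, an FPKM minimum of 5, DESeq2 1.42.0, limma 3.58.1 on log2(FPKM + 1), a replicate block, and each library left out. Each comparison of single groups was also fitted with only the groups compared. For isozyme ratios the alternatives were 5 fragments in place of 0.5, FPKM + 0.1, and each library left out. Correlations of same-numbered libraries lay within the range of differently numbered ones, so the main fit has no block. Floors of 3 fragments and these tests cover counting error and the spread between libraries only. No replicate pair agreed within sampling noise (chi-square over its degrees of freedom 10.9 to 43.5). Coordinates and transcripts for windows came from GENCODE M21 on mm10, promoters from RefSeq. The test scripts were tested on simulated data. All 37 genes were named whatever their values, with the 6 largest changes past the test in each direction from the other metabolic genes and the regulators. Hif1a was named outside this rule, since it did not pass. The genes, lists and pairs were chosen with earlier results of these data known. Python 3.11.15 with NumPy 2.4.6, pandas 2.3.3 and matplotlib 3.10.9 served for the rest.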

Additional observations from a re-analysis of the deposited data

How the results depend on the processing

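The 20 genes called between tumours and cerebellum kept their direction under every alternative run. Of the 20 genes called, 12 passed in all 15 alternatives, 6 missed the threshold in at least 1 (Slc2a3, Gpi1, Pfkl, Pgk1, Pdhb and Tkt), and 2 lacked an adjusted p in 1 (Eno2 under DESeq2, Pdk1 under the stricter filter). Of the genes not called, 3 passed in 1 alternative each (Pfkfb2 under limma, Pfkfb4 without cerebellum replicate 3, Slc16a7 without A1G replicate 3). The count of higher genes, 2, was 1 with median-of-ratios scaling, without a filter, with the stricter filter and with the replicate block, and 1 to 2 with a library left out. The lost gene was Tkt each time. For Ptch1 tumours against cerebellum the count of higher genes, 2, was 1 without a filter and with the stricter filter, and 1 to 2 with a library left out. With the replicate block, 17 genes were called between tumours and cerebellum, where Pgk1, Pdhb and Tkt missed the threshold. Deviations from the group means had correlations of -0.0689 to 0.211 between same-numbered libraries of different groups. This lay within the -0.253 to 0.239 of differently numbered ones. With 3 libraries per group this check cannot settle whether samples were paired. Called genes of either direction numbered 15 to 20 with a library left out in tumours against cerebellum, 12 to 15 in A1G tumours and 12 to 19 in Ptch1 tumours. Between A1G and Ptch1 tumours 0 of the 37 passed under any alternative. With a library left out 1 to 3 isozyme pairs did not overlap, where 1 did not with all, and fewer libraries overlap less readily. The ratios of Hk2 to Hk1, Aldoa to Aldoc, Eno1 to Eno2 and Ldha to Ldhb kept their direction and lost significance without any 1 cerebellum library, at adjusted p of 0.0655, 0.0982 and 0.0786 without replicate 1, 2 and 3 in turn, since fewer libraries raise the smallest p. The Eno1 ratio also missed the threshold when Gm5506 was added, at 0.0524. Pgam2, with 0 to 7 fragments per library, was too low for a difference to be detectable at this depth.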
